A study of Mus musculus with 15 samples.

Results

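The genes for mitochondrial ribosomal proteins were examined in 6DT1 mouse mammary cancer cells. Members were taken by name alone, as the genes of both gene tables whose symbol begins with Mrpl or Mrps and a digit, pseudogenes left out. The rule found 75 genes among the 13501 genes listed for OE and EV, and the same 75 among the 13669 listed for KD and shScr. Of these, 48 encode proteins of the large subunit and 26 encode proteins of the small subunit. Mrps30 and Mrps18a are counted with the large subunit despite their names. Mrps36 belongs to neither subunit, since its product is a component of the 2-oxoglutarate dehydrogenase complex. Among the members, 47 have a bacterial counterpart and 27 are specific to mitochondria. Mrpl33 was not analysed here, and Ict1 and Mrp63, older names of Mrpl58 and Mrpl57, were followed apart from the members.

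Mitochondria translate the few proteins that their own genome encodes on ribosomes of their own. The ribosomal RNAs come from mitochondrial DNA, whereas every protein of these ribosomes is encoded in the nucleus, made in the cytosol and imported. The large subunit forms peptide bonds and lies against the inner membrane, where the new subunits of the respiratory chain are inserted, and the small subunit decodes the messenger RNA. Many nuclear genes of this kind are known to be driven by the transcription factors NRF1 and GABP.

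Messenger RNA was sequenced in 15 libraries of 6DT1 cells grown on plastic, 3 from each of 5 lines, and collected 24 h after plating at 70% confluence. EV carried an empty vector and OE overexpressed Smarcd1, a subunit of the SWI/SNF chromatin remodelling complex, and both were kept in blasticidin. The hairpin lines were kept in puromycin, with shScr carrying a scrambled hairpin and KD4 and KD6 each carrying 1 hairpin against Smarcd1. No line received a further treatment, and replicates came from different passages. EV, OE, shScr, KD4 and KD6 were 1 line each, so that the spread within a line is a spread among passages. An effect of Smarcd1 cannot be told apart from other differences between the lines. Values were CPM, read counts scaled to the library total by the authors. Reads per library were not stated, which leaves the depth unknown, so that no counting error could be given for the levels. Values are given as mean ± SD over 3 libraries, or over 6 for KD, which is KD4 and KD6 together. Changes are differences of log2(CPM + 1) fitted with limma across all genes, with p adjusted over all of them by the Benjamini-Hochberg method, and a gene is said to be called at an adjusted p under 0.05.

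The labels were checked first. Smarcd1 changed by 1.12 ± 0.07 (log2, SE, adjusted p = 0.00355) in OE and by -0.69 ± 0.08 in KD4 (adjusted p = 0.000873), while its change in KD6 was -0.09 ± 0.08 (adjusted p = 0.701). The tables differed for this gene in OE, where the gene table had 70.4, 65.0 and 61.7 CPM and the listed transcripts summed to 38.3, 37.4 and 36.4 CPM. In EV the gene table had 31.9, 27.1 and 29.9 CPM, close to the sums of 32.4, 27.0 and 28.8 CPM. KD6 is thus a hairpin line whose targeted transcript did not pass the test. This concerns messenger RNA only, and the paper also examined Smarcd1 protein in hairpin lines by western blot. Of 8 epithelial markers, Krt8, Krt18 and Krt19 were listed, at a summed level of 660 to 961 CPM per library, while Epcam, Cdh1, Cldn3, Cldn4 and Cldn7 were not listed. Of the markers of other cell types, Cd68 was listed at 27.4 to 68.7 CPM, Pdgfra at 2.54 to 7.75 CPM and Kdr at up to 1.84 CPM. The first EV library stood apart on the first principal component of all genes, at -28.4 against -16.3 to -7.4 in the other EV and OE libraries. Counts of calls without it are given beside the comparisons of EV with shScr.

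The promoters of the family were searched for short versions of the motifs of both factors. RefSeq start sites on build GRCm38.p6, with 250 bases before and 50 after each, were at hand for 66 members with 72 promoters. The letters CCGGAAGT or their reverse complement ACTTCCGG, an ETS-type motif of the kind GABP binds, stood in promoters of 11 of 66 members (16.7%), against 10.0% of 8872 measured genes and 3.89% of all 32851 promoters. The letters GCATGCGC or their reverse complement GCGCATGC, an NRF1-type motif, stood in 7 of 66 members (10.6%), against 6.5% of the measured genes and 2.71% of all promoters. No member held both, and both strands were searched. Windows of 60 bases that lie upstream of the start site are shown for 8 of these members, as examples of promoters that hold these letters. They are written 5′ to 3′ on the strand of the gene, with the motif in capitals. The first 4 hold the NRF1-type letters and the others the ETS-type letters.
Mrpl10: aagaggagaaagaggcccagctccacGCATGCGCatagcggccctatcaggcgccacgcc
Mrpl32: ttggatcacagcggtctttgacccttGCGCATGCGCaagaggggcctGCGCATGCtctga
Mrpl39: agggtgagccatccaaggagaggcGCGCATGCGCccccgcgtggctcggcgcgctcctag
Mrps18b: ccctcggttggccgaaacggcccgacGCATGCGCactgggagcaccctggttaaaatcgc
Mrpl18: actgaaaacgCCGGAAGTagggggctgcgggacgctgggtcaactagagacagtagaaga
Mrpl27: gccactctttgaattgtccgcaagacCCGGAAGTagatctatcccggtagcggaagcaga
Mrpl51: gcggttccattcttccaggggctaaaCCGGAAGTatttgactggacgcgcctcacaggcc
Mrps18c: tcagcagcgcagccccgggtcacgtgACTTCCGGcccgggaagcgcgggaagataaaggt
These windows lie on GRCm38.p6, with Mrpl10 at chr11:97041422-97041481, Mrpl32 at chr13:14613091-14613150, Mrpl39 at chr16:84735334-84735393, Mrps18b at chr17:35916630-35916689, Mrpl18 at chr17:12916282-12916341, Mrpl27 at chr11:94653710-94653769, Mrpl51 at chr6:125192084-125192143, Mrps18c at chr5:100798576-100798635. In Mrpl32 and Mrpl39 the NRF1-type letters overlap with their own reverse complement, so that 1 run of capitals holds both. A match of letters is a description of the sequence only.

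All 75 genes had a level above 0 in every library, as the filter to a geometric mean of at least 1 CPM requires. Set against the length of the longest annotated protein-coding transcript, the level in EV ran from 2.82 to 103 CPM per kb, with a median of 23.8 CPM per kb for the large subunit and 19.0 CPM per kb for the small subunit. In shScr, from the other gene table, the medians were 21.4 and 16.8 CPM per kb. On this per-length scale Mrpl52 and Mrps21 were the highest, at 103 and 96.9 CPM per kb in EV, and Mrpl48 was the lowest at 2.82 CPM per kb. Mrpl12, the stalk protein that contacts translation factors and is also known to bind the mitochondrial RNA polymerase, reached 72.3 CPM per kb in EV.

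Members with known roles were set side by side in EV and OE. Mrpl12 had 86.5, 97.2 and 102 CPM in EV and 99.3, 93.1 and 104 CPM in OE, and its partner at the stalk base, Mrpl10, had 44.8 ± 2.90 CPM in EV and 45.4 ± 0.323 CPM in OE. The EV and OE libraries of Mrpl12 overlapped. Mrpl27, which reaches toward the peptidyl transferase centre, had 14.9 ± 0.517 CPM in EV and 14 ± 0.0562 CPM in OE. Mrps12, of the decoding centre, had 16.7 ± 1.04 CPM in EV and 15.4 ± 0.680 CPM in OE. Mrps30 had 49.6 ± 2.72 CPM in EV against 49.7 ± 1.00 CPM in OE. Mrpl32, which is matured by the m-AAA protease, had 41.0 to 46.3 CPM in EV and 36.2 to 38.4 CPM in OE, so that its libraries did not overlap. Of the 3 genes descended from bacterial S18, Mrps18a and Mrps18c had lower means in OE than in EV, and Mrps18b had a higher one (40.6 ± 5.94 against 42.7 ± 3.93 CPM, EV before OE).

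The first comparison set the line that overexpressed Smarcd1 against its control line. In OE 65 of 75 members had a lower mean than in EV, with a median log2 change of -0.10 over the members and 0.01 over all genes. Of all genes, 46.2% had a lower mean. No member was called, and of all 13501 genes 1 was called (0.00741%). At an unadjusted p under 0.05, 16 members were lower and 0 were higher, where 5.27% of all genes were lower and 7.68% higher at that level. The libraries of OE lay wholly below those of EV for 24 members, or 32% of them, and wholly above for 0, against 8.71% of all genes below and 11.3% above. The shift was of like size in both subunits, with a median of -0.10 over 48 large-subunit genes (43 lower) and -0.07 over 26 small-subunit genes (21 lower). Genes with a bacterial counterpart had a median of -0.08 and mitochondria-specific genes -0.11.

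The summed level of the family showed how small the shift was. The 75 genes together took 2637, 2488 and 2541 CPM in the EV libraries and 2376, 2389 and 2412 CPM in the OE libraries. Every OE library was thus below every EV library (difference of the means -6.38%, and -6.97% after scaling each library by the median of ratios over all genes). The large subunit summed to 1670 ± 54.5 CPM in EV and 1563 ± 14.1 CPM in OE, and the small subunit to 874.8 ± 19.7 and 820.4 ± 10.4 CPM. No test was applied to these sums.

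**Figure D1:**
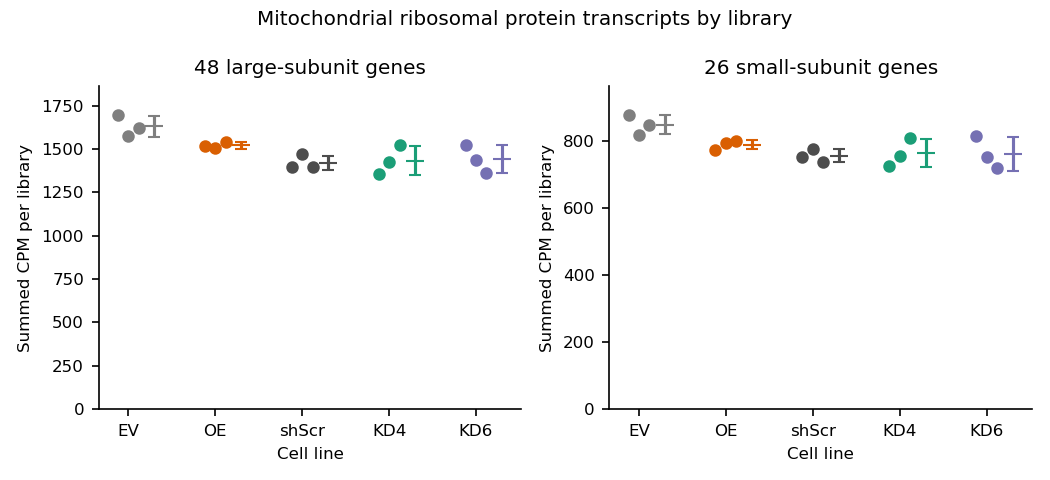
Summed CPM (y axis) of the 48 large-subunit genes (left) and the 26 small-subunit genes (right) in each library of the 5 lines (x axis), from the transcript table, which holds all lines on 1 scale. Points are libraries and bars are the mean ± SD of 3, and EV lies above the other lines, with 1631 CPM for the large and 848.4 CPM for the small subunit against 1420 and 756.1 CPM in shScr.

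The 6 members with the smallest p in OE were all lower. Mrpl42 (ENSMUSG00000062981), a mitochondria-specific protein of the large subunit, had 39.4, 37.4 and 44.5 CPM in EV and 34.3, 31.6 and 33.0 CPM in OE. The libraries did not overlap, and the change was -0.28 ± 0.07 (SE, adjusted p = 0.235). Mrpl45 (ENSMUSG00000018882) faces the inner membrane beside the exit of the polypeptide tunnel. Its libraries had 44.8, 41.8 and 42.8 CPM in EV and 36.7, 39.3 and 37.9 CPM in OE, a change of -0.18 ± 0.05 (adjusted p = 0.281). Mrps14 (ENSMUSG00000058267), of the small subunit, had 41.1, 29.3 and 33.7 CPM in EV against 25.6, 27.3 and 27.2 CPM in OE. Its change of -0.35 ± 0.11 was the lowest of the 75 (adjusted p = 0.292), and it was -0.23 without the first EV library. Mrps11 (ENSMUSG00000030611) had 16.6 ± 2.02 CPM in EV and 13.2 ± 0.323 CPM in OE, a change of -0.30 (adjusted p = 0.282). Mrps18a (ENSMUSG00000023967) had 31.9, 28.8 and 26.2 CPM in EV against 24.0, 23.7 and 24.6 CPM in OE. Mrpl51 (ENSMUSG00000030335) had 52.9 ± 2.31 CPM in EV and 47.0 ± 1.63 CPM in OE. In all 6 genes the OE libraries lay below the EV libraries, and none passed the adjusted threshold. Of the 10 members with a higher mean in OE, Mrps24 had the highest change at 0.21, with 7.80, 11.4 and 11.5 CPM in EV and 11.5, 12.2 and 11.8 CPM in OE. Its first EV library was the low one.

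**Figure D2:**
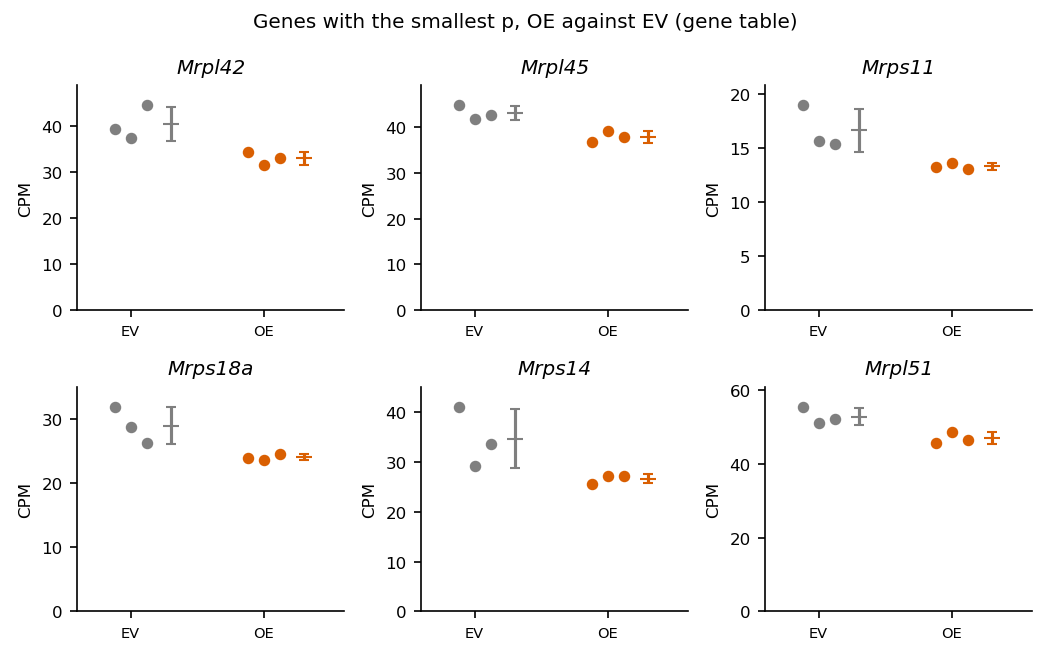
CPM (y axis, from 0) of 6 members in each EV and OE library (x axis), with points for libraries and bars for the mean ± SD of 3 libraries. In each gene the highest OE library is below the lowest EV library, for example 34.3 against 37.4 CPM in Mrpl42.

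Transcript length moved with this comparison over the whole transcriptome. Across 10952 genes with a length, short transcripts were lower and long transcripts higher in OE, with a Spearman rho of 0.42 between change and length, given here as a description across genes that share the same 6 libraries. The members are short, with a median of 1213 bases against 3028 bases over all genes, and 56 of them fell in the shortest of 4 length bins of equal size. In that bin 72% of all genes had a lower mean, with a median of -0.07, and 47 of 56 members did (83.9%), with a median of -0.09. In the longer bins, from shorter to longer, 8 of 9, 7 of 7 and 3 of 3 members had a lower mean. Their medians were -0.14, -0.08 and -0.17, against -0.02, 0.01 and 0.06 over all genes of those bins. Relative to the median of all genes in their own length bin, 48 of 75 members were lower and 27 higher, and the median difference was -0.04. Without the first EV library rho was 0.43 and 68 members had a lower mean. The part that length had in the lower level of the family was not tested.

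**Figure D3:**
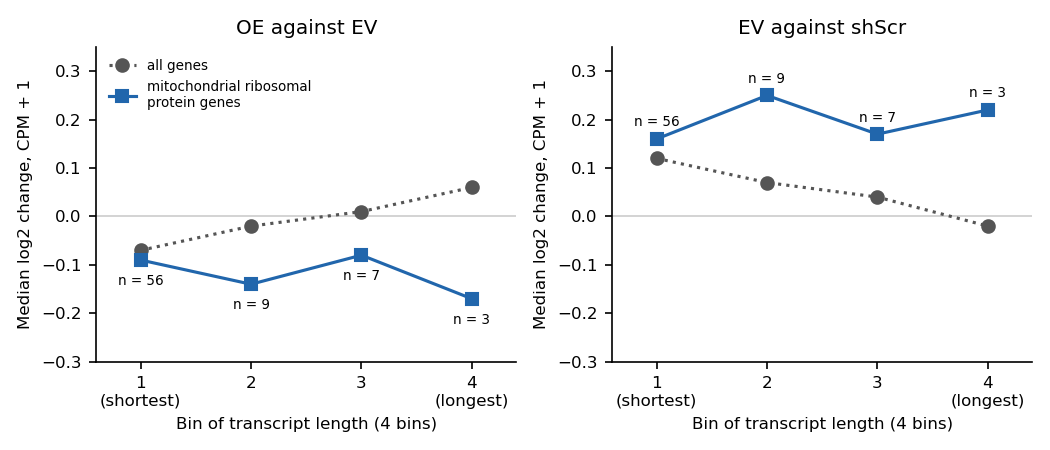
Median log2 change (y axis) by bin of transcript length (x axis, 4 bins, shortest to longest) for all genes (dotted) and for the members (solid, with their number), in OE against EV (left) and EV against shScr (right). In the shortest bin, which holds 56 members, the medians of members and of all genes lie close, at -0.09 and -0.07 in OE against EV and at 0.16 and 0.12 in EV against shScr. In the longer bins, with fewer members, they lie further apart. In the second bin, with 9 members, they are -0.14 and -0.02 in OE against EV and 0.25 and 0.07 in EV against shScr.

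The second comparison set the lines with a hairpin against Smarcd1 against their control line. Over KD4 and KD6 together Smarcd1 itself was not called, with a change of -0.39 ± 0.17 (log2, SE, adjusted p = 0.268). With KD4 and KD6 as 1 group, 44 members had a higher mean than in shScr and 31 a lower one, and the median change was 0.01, against 0.00 over all genes. The number with a lower mean ranged from 26 to 39 when single libraries were left out, with 39 without the first KD6 library. No member was called, and 364 of 13669 genes were (2.66%). At an unadjusted p under 0.05, 4 members were higher and 2 lower, against 9.86% of all genes higher and 7.43% lower. The KD libraries lay wholly above those of shScr for 4 members (5.33%) and wholly below for 1 (1.33%). Of all 13669 genes, 842 lay wholly above and 635 wholly below. The summed level was 2295 ± 99.4 CPM in KD and 2279 ± 63.3 CPM in shScr, a difference of 0.728% that is smaller than the spread of either group. The KD4 libraries summed to 2175, 2277 and 2412 CPM and those of KD6 to 2412, 2286 and 2210 CPM, so that both hairpin lines spread across the range of shScr.

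Mrpl2 (ENSMUSG00000002767), a core protein of the large subunit, had the smallest p among the members in KD. It had 19.7, 22.2 and 22.7 CPM in shScr, and in KD its lowest, median and highest library had 24.3, 25.1 and 27.1 CPM. The groups did not overlap, and the change was 0.22 ± 0.07 (SE, adjusted p = 0.129). Mrps2 (ENSMUSG00000035772), of the small subunit, had 31.8 to 34.8 CPM in shScr and 35.1 to 40.5 CPM in KD, with a change of 0.19 (adjusted p = 0.173). Mrpl17 (ENSMUSG00000030879) had 42.2 to 43.2 CPM in shScr and 45.1 to 50 CPM in KD, a change of 0.13 (adjusted p = 0.281). Both genes were higher in every KD library than in any shScr library. Mrps36 (ENSMUSG00000061474), which is not a ribosomal protein, had 8.22 ± 1.42 CPM in shScr and 9.88 ± 0.518 CPM in KD (change 0.25, adjusted p = 0.225). Mrps18b (ENSMUSG00000024436) had 49.0, 49.0 and 48.6 CPM in shScr and a median of 44.1 CPM in KD, from 39.7 to 46.6 CPM. In the gene table all 6 KD libraries were below shScr, and the change was -0.17 ± 0.07 (adjusted p = 0.230). Mrps24 (ENSMUSG00000020477) had 16.8 ± 2.63 CPM in shScr and 14 ± 0.997 CPM in KD, and its groups overlapped.

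The hairpin lines were then fitted apart, sharing the shScr libraries. In KD4, 5 members were higher and 8 lower at an unadjusted p under 0.05 and none was called. Of all genes 13.4% were higher and 11.3% lower at that level, and 1310 of 13669 were called (9.58%). The smallest adjusted p was that of Mrps18b, at 0.0895, with 45.7, 39.7 and 40.8 CPM in KD4 and a change of -0.21 ± 0.07. This separation was seen in the gene table only. The listed transcripts of Mrps18b summed to 34.4, 41.6 and 37.9 CPM in shScr and to 35.8, 34.1 and 39.5 CPM in KD4, which overlapped. Mrpl44 (ENSMUSG00000026248), a large-subunit protein with a ribonuclease III-like fold, had 15.4, 16.7 and 17.0 CPM in KD4 against 18.9, 19.2 and 19.4 CPM in shScr, a change of -0.22 (adjusted p = 0.113). Mrpl24 (ENSMUSG00000019710) had 29.5, 34.7 and 33.8 CPM in KD4 and 35.8, 40.6 and 38.3 CPM in shScr (change -0.22, adjusted p = 0.121). In the gene table each of these genes was lower in every KD4 library than in any shScr library. Over the family, KD4 lay wholly below shScr for 11 members (14.7%) and wholly above for 9 (12%). Of all 13669 genes, 1860 lay wholly below and 2171 wholly above. Without the first KD4 library 1 member was called in the gene table, Mrps18b with an adjusted p of 0.0405.

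In KD6, 3 members were higher and 0 lower at an unadjusted p under 0.05, against 8.65% and 6.61% of all genes. No member was called there, and 398 genes were (2.91%). Mrpl2 had a change of 0.22 in KD6 and 0.23 in KD4, and Mrps2 of 0.18 and 0.20. Mrps36 had 10.6, 9.93 and 10.2 CPM in KD6, a change of 0.30 ± 0.11 (adjusted p = 0.217). Set directly against KD4, no member was called in KD6, where 671 genes were (4.91%). The smallest p was that of Mrpl41 (ENSMUSG00000036850), with 26.7, 26.2 and 25.3 CPM in KD6 and 22.6, 21.5 and 23.7 CPM in KD4 (difference 0.20 ± 0.07, adjusted p = 0.170). Mrps6 (ENSMUSG00000039680), the small-subunit protein homologous to bacterial S6, had 37.3, 38.1 and 33.4 CPM in KD6 and 40.9, 42.0 and 41.2 CPM in KD4, a difference of -0.19 (adjusted p = 0.188). Mrpl44 and Mrpl24 were higher in KD6 than in KD4 by 0.17 and 0.18, with adjusted p of 0.288 and 0.296.

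Over the 9 KD and shScr libraries the members varied loosely together, with a median Pearson r of 0.31 over 2775 pairs. The genes whose log2 level followed the mean of the members most closely were Snrnp35, Rbm3 and Ost4 (each r = 0.97), Atp6ap1 (r = 0.96) and Rbm7 (r = 0.95). These values describe 9 libraries that share preparation and scale, and carry no test.

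The effects of overexpression and knockdown were set against each other in the transcript table, where the CPM of a gene's listed transcripts were summed. The difference, OE effect minus KD effect, was negative for 59 of 75 members, with a median of -0.14 against -0.01 over all genes. It used the same EV and OE libraries as the first comparison, and the median change in KD alone was 0.01 in the gene table. No member was called, and 250 of 13142 genes were (1.90%). At an unadjusted p under 0.05, 11 members were negative and 1 positive, against 9.94% and 8.79% of all genes. Mrps36 came nearest to the threshold, at -0.65 ± 0.18 (adjusted p = 0.0861). Its transcripts summed to 10.5, 8.54 and 12.4 CPM in EV and 8.78, 8.41 and 6.95 CPM in OE, and to 6.21, 8.84 and 7.35 CPM in shScr. In KD4 they summed to 9.12, 8.36 and 9.57 CPM and in KD6 to 10.4, 10.2 and 8.95 CPM. Mrpl45 followed at -0.26 ± 0.08 (adjusted p = 0.108), and Mrps2, Mrps11, Mrps16 and Mrps14 lay between -0.59 and -0.26 (adjusted p = 0.154 to 0.190).

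Members were called most often between the control lines. EV and shScr differ in vector and in selection drug, which cannot be told apart. Smarcd1 itself differed between them by 0.90 ± 0.10 (adjusted p = 7.48e-05), with 14.1, 17.0 and 14.7 CPM in shScr on the summed transcript scale. Of the 75 members, 70 had a higher mean in EV in the transcript table, with a median change of 0.17 against 0.02 over all genes. Called members numbered 23 higher and 1 lower, where 9.40% of all 13142 genes were called higher and 6.41% lower. The EV libraries lay wholly above those of shScr for 43 members (57.3%), against 21.1% of all genes. The summed level was 2490 ± 89.7 CPM in EV and 2183 ± 62.6 CPM in shScr, higher by 14% in EV. Both subunits took part, with 13 of 48 large-subunit and 9 of 26 small-subunit genes called higher, and with medians of 0.18 and 0.16. Of the mitochondria-specific genes 8 of 27 were called higher, and of those with a bacterial counterpart 14 of 47.

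**Figure D4:**
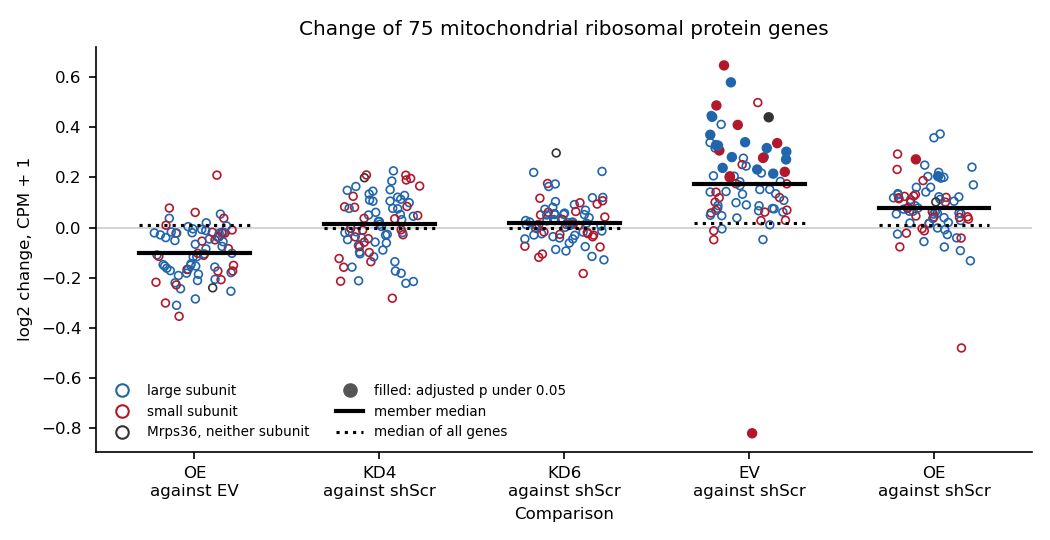
Log2 change (y axis) of each of the 75 members in 5 comparisons (x axis), with large-subunit genes in blue, small-subunit genes in red and Mrps36 in dark grey, called genes filled, and solid and dotted lines for the medians of the members and of all genes. The members lie below all genes in OE against EV (-0.10 against 0.01), close to them in both hairpin lines, and above them in EV against shScr (0.17 against 0.02), the comparison with 24 called members.

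Mrpl45 had the smallest p of the family, with 44.9, 41.7 and 42.7 CPM in EV and 34.5, 35.3 and 33.3 CPM in shScr. The change was 0.32 ± 0.06 (SE, adjusted p = 0.00394), and OE, with 36.7, 39.3 and 37.6 CPM, lay between. Mrpl49 (ENSMUSG00000007338) had 38.9, 34.2 and 40.4 CPM in EV and 22.4, 27.2 and 25.4 CPM in shScr, a change of 0.58 ± 0.12 (adjusted p = 0.00736). Its listed transcripts made up 101% of the gene-table value in EV and 82.5% in shScr. Mrps11 had the highest change of the family, 0.65 ± 0.16 (adjusted p = 0.0166), from 9.14, 11.4 and 9.67 CPM in shScr to 18.6, 15.2 and 15.2 CPM in EV. Mrps2 had 40.4 ± 2.14 CPM in EV against 32.5 ± 1.80 CPM in shScr (change 0.31, adjusted p = 0.0104). Mrpl53 (ENSMUSG00000030037) and Mrpl17 rose by 0.44 and 0.24. In all of these genes the EV libraries lay above the shScr libraries. Mrps24 was the only member called lower, with 6.57, 10.1 and 11.2 CPM in EV and 23.6, 14.4 and 13.9 CPM in shScr (change -0.82 ± 0.21, adjusted p = 0.0193). The first shScr library was the high one, and without it the change was -0.59. Further members among the 12 with the smallest p were Mrpl51, Mrps18a, Mrpl30, Mrpl54 and Mrps16, higher in EV by 0.21 to 0.34 (adjusted p = 0.0234 to 0.0369). The other 12 called members lay close to the threshold, with changes of 0.20 to 0.49 and adjusted p of 0.0386 to 0.0439. Promoters with the ETS-type letters belonged to 3 called members of 11 (median change 0.10), against 17 of 55 members without them (0.18). For the NRF1-type letters the counts were 1 of 7 (0.14) and 19 of 59 (0.17).

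**Figure D5:**
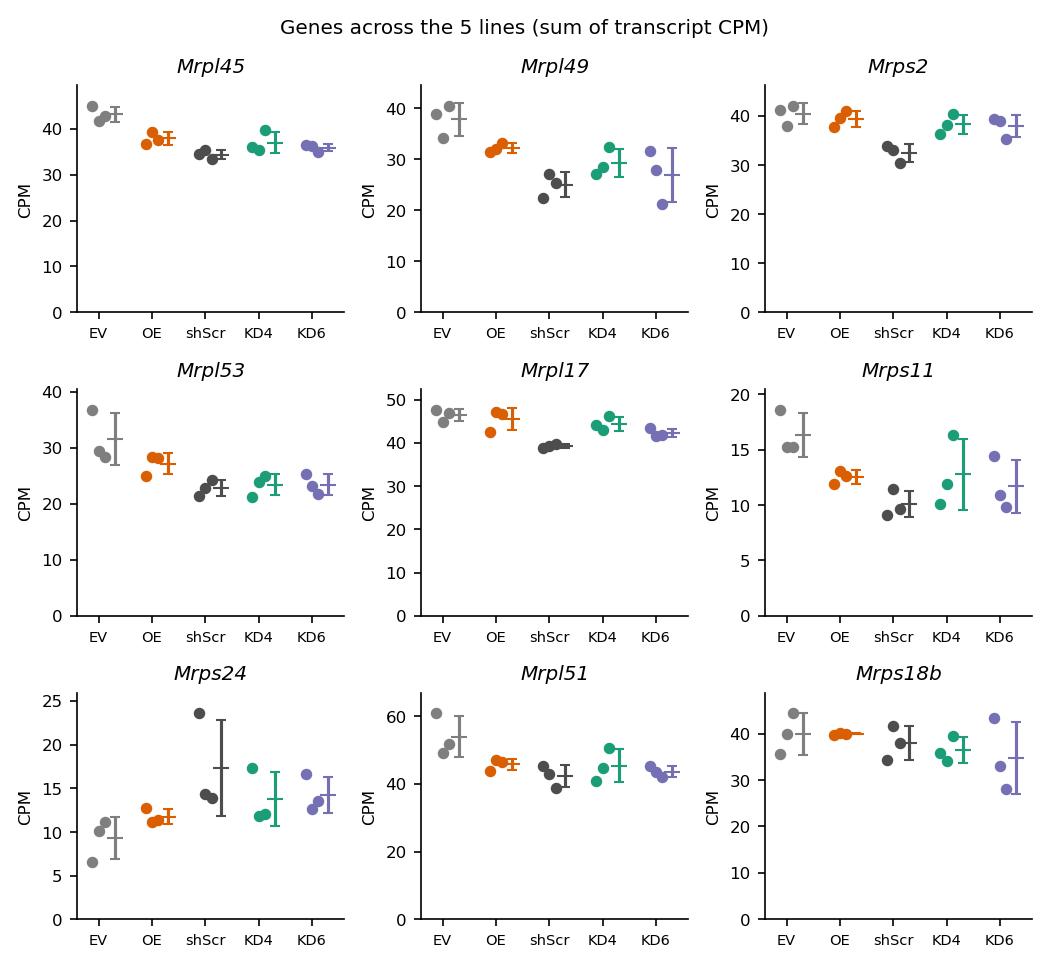
Summed transcript CPM (y axis, from 0) of 9 members in each library of the 5 lines (x axis), with points for libraries and bars for the mean ± SD of 3 libraries. EV is above shScr in 7 of them, Mrps24 runs the other way from 9.28 CPM in EV to 17.3 CPM in shScr, and Mrps18b overlaps between EV and shScr.

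The number of calls changed with single libraries. Without the first EV library 3 members were called in place of 24, without the third EV library 9, without the first shScr library 5 and without the third shScr library 9. The median change stayed between 0.15 and 0.22 in those fits. Length moved with this comparison too, in the opposite sense to OE against EV, with a rho of -0.22 over 10580 genes. In the shortest bin 29.7% of all genes had a lower mean in EV and 5 of 56 members did. Of all genes in that bin 14.4% were called higher. In the longer bins, from shorter to longer, 0 of 9, 0 of 7 and 0 of 3 members had a lower mean. Their medians were 0.25, 0.17 and 0.22, against 0.07, 0.04 and -0.02 over all genes of those bins. Relative to the genes of their own bin 53 members were higher and 22 lower, with a median difference of 0.08. The part of length in this difference was not tested.

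OE, which shares its vector and drug with EV, was also above shScr, though less so. For OE 60 of 75 members had a higher mean than in shScr, with a median of 0.08, and 2 members were called higher, Mrps2 (0.27, adjusted p = 0.0261) and Mrpl17 (0.20, adjusted p = 0.0365). Of all genes 5.46% were called higher and 2.69% lower. In the order of the line means EV was the highest line for 58 of 75 members, and shScr was the lowest for 32 and KD4 for 26. The summed means ran from EV (2490 CPM) through OE (2319 ± 25.9 CPM), KD6 (2212 ± 131 CPM) and KD4 (2206 ± 125 CPM) to shScr (2183 ± 62.6 CPM), and the last 3 did not differ beyond their spread. Mrpl18 varied least between lines, with line means within 0.05 on the log2 scale, and Mrps24 most, with 0.83.

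Transcripts and their shares were examined in the same table, which listed 166 transcripts of the members, 53 members having 2 or more. None was called as a transcript in OE (0% of all 30220 transcripts called), KD4 (3.62%) or KD6 (0.979%). At an unadjusted p under 0.05 the counts were 16, 15 and 10 of these 166 transcripts, in the same order of lines, against 6.61%, 18.3% and 12.6% of all transcripts. The smallest adjusted p was 0.0928, for a transcript of Mrpl28 that had 37.5 ± 1.31 CPM in KD4 and 31.6 ± 1.45 CPM in shScr. The share of each transcript in its gene was tested in 7077 genes, and no member was called in OE, KD4 or KD6, where 0.834%, 2.20% and 1.29% of genes were. At an unadjusted p under 0.05 there were 8, 8 and 5 members, against 13.3%, 16.6% and 13.6% of all genes tested. Mrpl17 came nearest in both hairpin lines, with adjusted p of 0.0977 in KD4 and 0.105 in KD6, and Mrpl35 in OE at 0.118. For 63 of 75 members the transcript sum lay within 90 to 110% of the gene-table value in all lines, and the lowest share was 65.6%, in Mrpl23. Among members named here Mrps18b had 77.7% in shScr, 86.7% in KD4 and 98.3% in EV, and Mrps11 had 89.4% in shScr and 98.2% in EV.

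The rest of the mitochondrial translation apparatus was read from lists of known genes. Of all genes 9.40% were called higher and 6.41% lower in EV against shScr, and 9.58% were called in KD4. Of 5 ribosomal proteins with other names, none was called in OE, KD, KD4 or KD6, and Chchd1 rose in EV against shScr by 0.22 (adjusted p = 0.0312). Mrpl57 and Mrpl58, the latter a peptidyl-tRNA hydrolase built into the large subunit, had log2 changes of -0.03 and -0.07 in OE and of 0.14 and 0.29 in EV against shScr, and neither was called. Of 17 translation factors none was called in OE or the hairpin lines. Against shScr, 3 were higher in EV, namely the insertase Oxa1l (0.38, adjusted p = 0.0212), the elongation factor Gfm1 (0.21, adjusted p = 0.0243) and the elongation factor Tufm (0.53, adjusted p = 0.0272). Of 27 assembly factors 2 were called higher in EV than in shScr. They were the GTPase Gtpbp10 (0.59, adjusted p = 0.0015) and the methyltransferase Mettl15 (0.40, adjusted p = 0.0224). Over this list the median in EV against shScr was -0.01, with 13 means higher and 14 lower. None of the list was called in OE against EV, KD, KD4 or KD6. Of 20 aminoacyl-tRNA synthetases Tars2 fell in KD4 by 0.29 on the log2 scale (adjusted p = 0.0402), and no synthetase was called in KD4 without any 1 of the KD4 libraries, the second or the third shScr library or the second KD6 library. Without the first EV library the calls of these lists in EV against shScr went from 1 to 0 for the proteins with other names, from 3 to 0 for the translation factors and from 2 to 1 for the assembly factors. Without the third EV library they went to the same counts. Without the first or the third shScr library 1 translation factor was called and no protein with another name.

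Of 13 genes of mitochondrial transcription and RNA processing, Tfb2m, which opens the promoter for the mitochondrial RNA polymerase, fell in KD4 by 0.59 (log2, adjusted p = 0.00303), with 41.3 ± 3.70 CPM in shScr and 27.1 ± 1.62 CPM in KD4. It stood at 39.9 ± 3.61 CPM in KD6, higher than in KD4 by 0.54 (adjusted p = 0.00699). Hsd17b10 and Supv3l1 were higher in EV than in shScr by 0.26 and 0.22 (adjusted p = 0.0296 and 0.0379). Of all genes 9.40% were called higher in EV against shScr and 5.46% in OE against shScr. The transcription regulator Ppargc1b was higher in EV than in shScr by 0.34 (adjusted p = 0.0416) and in OE by 0.44 (adjusted p = 0.0201), and it was the only regulator of 8 called in these comparisons. Of 14 genes encoded by mitochondrial DNA 6 were higher in EV than in shScr, with a median of 0.34 over the list, among them mt-Nd3 (0.78, adjusted p = 0.0065) and mt-Co3 (0.69, adjusted p = 0.00783). Without the first EV library 2 of these were called in EV against shScr and without the third 3, and in both fits none of the genes of transcription and RNA processing and no regulator was. The same 2 lists had 0 calls without the first or the third shScr library, and of the mitochondrially encoded genes 7 and 2 were called in those fits. In OE against EV none of the 14 was called. Their means were higher for 8 and lower for 6, with a median of 0.03. The ribosomal RNAs mt-Rnr2 and mt-Rnr1, which the members bind, had changes of 0.38 (adjusted p = 0.196) and 0.43 (adjusted p = 0.238) there, opposite in sign to the median of the members. The libraries were of messenger RNA, and how well they measure ribosomal RNA is not known. The changes of mt-Nd3 and mt-Co3 were -0.33 and -0.17 (adjusted p = 0.358 and 0.407), of the same sign as that median. Genes of mitochondrial DNA took 5.86 ± 0.324% of the CPM listed in the gene tables in EV, 6.22 ± 0.285% in OE and 4.96 ± 0.572% in shScr, and their part in the level of the members was not tested.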

How the data were processed

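Messenger RNA of 15 libraries, 3 per line, was deposited as CPM (read counts scaled to the library total), calculated by the authors, in 2 gene tables and 1 transcript table. The tables were filtered to a geometric mean of at least 1 CPM. The labels name STAR 2.7.8a and mm39, whereas the methods name an older aligner and build, so no coordinates were taken from the files. The transcript table held 15 further columns that match no label and were not used. Gene identifiers were paired with symbols for 88.1% and 87.3% of genes.

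Log2(CPM + 1) was fitted with limma 3.58.1 (R 4.3.3) with a trend, on all genes of a table, called at an adjusted p under 0.05. EV and shScr were compared, and OE and KD effects contrasted, on gene sums of transcript CPM in a fit of 5 groups. Transcript share was tested with diffSplice. Sums and medians carried no test. Named genes were the 6 with the smallest p per comparison (12 of those called), members with known roles, the extremes of level and spread, and called genes of each list or those with the smallest p. A gene that this rule would name is not reported here. Mrpl28, Mrpl35, Mrpl52, Mrps21 and Mrpl48, the motifs and the split by length were chosen after values were seen. Members and lists were chosen with earlier results of these data known. Tests were checked on simulated data. Replicates were separate passages, and same-numbered libraries did not deviate together (r from -0.33 to 0.26), so no block was used. Lengths came from GENCODE vM1 and promoters from RefSeq. Alternatives were a pseudocount of 0.1 CPM, a minimum mean of 5 CPM, quantile normalization, scaling by the median of ratios, no trend, a replicate block and leaving out each library.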

Additional observations from a re-analysis of the deposited data

Results flagged for a closer look

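Mrpl17 was checked among the 6 KD libraries because 1 of them, the first KD4 library with 50 CPM, stood apart from the others at 45.1 to 46.8 CPM. The gap to its neighbour was 0.644 of the range of the group, and such a gap is reached by chance in about 1 of 20 groups, where 1 of 16 values checked here did. Without that library the change of Mrpl17 in KD was 0.11 (adjusted p from 0.289 to 0.518 over the fits that each leave out 1 library).

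Mrps6 went opposite ways in the hairpin lines, with every KD4 library above the mean of shScr (39.1 CPM) and every KD6 library below it. The difference KD6 minus KD4 was -0.19 on the log2 scale, and the test of that difference did not pass (adjusted p = 0.188).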

How the results depend on the processing

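In OE against EV, KD, KD6 and KD6 against KD4 no member was called under any alternative run, and the median change of the members in OE against EV kept its sign, from -0.12 to -0.07 over the fits that each leave out 1 library. Called members in KD4 ranged from 0 to 1 over those fits. In EV against shScr the count of 24 ranged from 3 to 28, with 3 without EV replicate 1, 5 without shScr replicate 1, 9 without EV replicate 3 or shScr replicate 3, and 14 without OE replicate 3 or KD6 replicate 2, and it was 11 after quantile normalization. With OE in place of EV, chosen after seeing the data, the count was 2 and the median 0.08. Members called by transcript share ranged from 0 to 2 in OE (2 without EV replicate 2, 1 without EV replicate 3), from 0 to 1 in KD4 (1 without shScr replicate 2, shScr replicate 3 or KD4 replicate 1) and from 0 to 1 in KD6 (1 without shScr replicate 2). Medians near 0 changed sign over the fits that each leave out 1 library, from -0.02 to 0.06 in KD4, from -0.02 to 0.05 in KD6 and from -0.03 to 0.05 in KD6 against KD4. A replicate block gave 7 called members in EV against shScr and 0 in each other comparison, although the numbers do not pair the libraries. With CPM alone, the counting error of low members such as Mrpl23 could not be set, and changes of low genes are understated on the log2(CPM + 1) scale.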
